A study of Mus musculus with 15 samples.

Results

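The Hox genes encode homeodomain transcription factors and are held in 4 genomic clusters, a to d. The genes asked about here are the protein-coding RefSeq genes (GRCm38.p6, the assembly of mm10) named Hox, then a cluster letter, then a number: 39 of 21887 protein-coding genes. Cluster a on chromosome 6 had 11 of them, cluster b on chromosome 11 had 10, cluster c on chromosome 15 had 9 and cluster d on chromosome 2 had 9. A peak was assigned to a gene when it lay within 5 kb of the gene's span, and a gene was called for a target when at least 2 of 3 libraries had such a peak. The rule uses names only and no measured value, but earlier results of these data were known when the members were chosen.

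HPC-7 is a mouse early haematopoietic progenitor line derived from embryonic stem cells, and it was profiled by CUT&Tag, which uses antibody-tethered transposase to tag the DNA beside a target. SMC3, a core subunit of the cohesin ring that holds DNA loops and sister chromatids, was profiled in 3 libraries of cells carrying an shRNA against YY1 (shYY1) and in 3 libraries of control cells. The zinc finger factor YY1 and the promoter mark H3K4me3 (trimethylated lysine 4 of histone H3) were profiled in 3 control libraries each, and 3 IgG libraries were not analysed here. The control cells are wild type in the titles and carry an shRNA against luciferase (shLUC) by their descriptions, about 150000 cells went into a reaction, and the protocol in the labels speaks of biological replicates. Abcam is named in the description of replicate 1 of each SMC3 arm and of no other SMC3 library. YY1 itself was not profiled in the shYY1 libraries used here, so how far it was lowered was not measured.

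Within each cluster the Hox genes lie in the order of their paralog numbers, and in the embryo low-numbered genes act earlier and nearer the head than high-numbered ones. Trithorax-group enzymes such as MLL1 deposit H3K4me3 at Hox genes that are kept active, and Polycomb complexes hold the others silent. In blood, Hox genes of the a and b clusters are known regulators of stem and progenitor cells, and Hoxa9 with its cofactor Meis1 is a known driver of leukaemia. YY1 is the mammalian relative of Pho, a DNA-binding Polycomb-group protein of the fly.

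The lists held 2631, 3213 and 3032 SMC3 peaks in shYY1 cells, against 4511, 4595 and 2061 in control cells. YY1 lists held 8469, 10699 and 3750 peaks, and H3K4me3 lists held 16763, 17895 and 17493. SMC3 replicate 1 of shYY1 cells, control SMC3 replicate 3 and YY1 replicate 3 were thus the shortest lists of their groups, and none of them held a peak near a Hox gene. The lists hold positions only, with no score and no read count, so the depth is unknown and a gene with no peak may have had signal below the submitters' threshold. Of the early haematopoietic markers, 12 of 12 were called for H3K4me3, Kit, Cd34, Lyl1 and Tal1 included, against 55% of all protein-coding genes. Each of the 12 had it in 3 of 3 libraries. None of the 6 pluripotency genes, Pou5f1 and Nanog included, had a peak of any target. Among the 4 neural, 4 mesodermal and 4 endodermal markers none was called, with single-library peaks of H3K4me3 at Neurog2 and of YY1 at Tbx5 and Sox17.

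H3K4me3 marked 18 of the 39 Hox genes, 46.2%, against 55% of all protein-coding genes. The marked genes were Hoxa3, Hoxa4, Hoxa5, Hoxa6, Hoxa7 and Hoxa9 in cluster a, Hoxb3, Hoxb4, Hoxb6 and Hoxb7 in cluster b, Hoxc6 and Hoxc8 in cluster c, and Hoxd3, Hoxd4, Hoxd8, Hoxd9, Hoxd12 and Hoxd13 in cluster d. All had a peak in 3 of 3 libraries except Hoxd12 and Hoxd13, which shared 1 peak present in replicates 2 and 3. Counted in 3 of 3 libraries, H3K4me3 thus marked 16 Hox genes, against 54.3% of all genes, and counted in at least 1 library 18, against 55.8%. The other 21 had no peak of any target in any library. Among these were Hoxa2, Hoxa10, Hoxa11 and Hoxa13, then Hoxb1, Hoxb2, Hoxb5, Hoxb8, Hoxb9 and Hoxb13, then Hoxc4, Hoxc5, Hoxc9, Hoxc10, Hoxc11, Hoxc12 and Hoxc13, and last Hoxd1, Hoxd10 and Hoxd11. Neighbouring Hox genes share peaks, so counts of genes are not counts of separate regions.

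**Figure D1:**
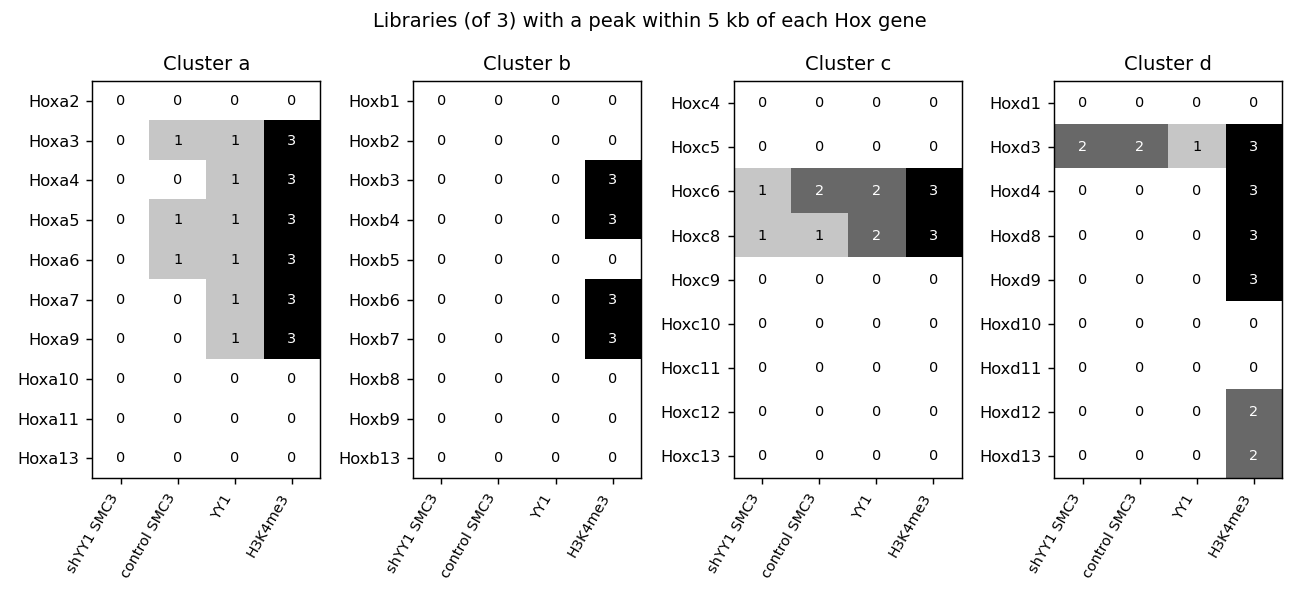
Number of libraries, of 3, with a peak within 5 kb of each Hox gene shown, with a panel per cluster, a row per gene and a column per target (darker means more libraries). The H3K4me3 column holds 16 genes at 3 libraries and 2 genes at 2, while the SMC3 and YY1 columns reach 2 at Hoxc6, Hoxc8 and Hoxd3 only.

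By position in the clusters, H3K4me3 was called at 6 of 12 genes of paralog groups 1 to 4, at 8 of 11 of groups 5 to 8 and at 4 of 16 of groups 9 to 13. These are 50%, 72.7% and 25% in that order, against 55% of all protein-coding genes. Calls at Hoxa4, Hoxa6, Hoxa7, Hoxb7 and Hoxc8, and at every marked gene of groups 9 to 13, came from peaks outside the gene spans. Of these named genes, Hoxa4 is in groups 1 to 4 and the others are in groups 5 to 8. The shares by group, and their order, thus depend on the 5 kb window. With the window at 0 bp, groups 1 to 4 kept Hoxa3, Hoxb3, Hoxb4, Hoxd3 and Hoxd4. Groups 5 to 8 then kept Hoxa5, Hoxb6, Hoxc6 and Hoxd8, a lower share than that of groups 1 to 4. At 0 bp, 51% of all protein-coding genes were called. Hoxb1, an early target of retinoic acid in the embryo, was among the genes with no peak, as was Hoxd1. In cluster a the marked genes formed 1 unbroken run. It went from Hoxa3 (chr6:52169059-52213067) to Hoxa9 (chr6:52223097-52227370), with Hoxa2 on one side and Hoxa10, Hoxa11 and Hoxa13 on the other lacking peaks. The Hoxa3 span contains those of Hoxa4, Hoxa5 and Hoxa6, and its lowest H3K4me3 region begins at chr6:52191905, above Hoxa4. The Hoxb3 span likewise contains that of Hoxb4, and the Hoxd3 span that of Hoxd4. A region in a nested gene thus also counts for the longer one. In cluster b the run was broken at Hoxb5, whose nearest H3K4me3 region lay 5378 bp from its span, just outside the window. Hoxb3 (chr11:96307101-96347930) and Hoxb4 (chr11:96318267-96321638) stood on one side of it and Hoxb6 (chr11:96292814-96301569) and Hoxb7 (chr11:96285604-96290163) on the other. Cluster c had the pair Hoxc6 (chr15:102998226-103011882) and Hoxc8 (chr15:102990539-102994275), which are neighbours. In cluster d, Hoxd3 (chr2:74711993-74748271) to Hoxd9 (chr2:74697763-74700208) formed 1 run, and Hoxd12 (chr2:74675013-74677705) and Hoxd13 (chr2:74668225-74671603) a second.

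Just inside the 5 kb window were Hoxc8 at 4553 bp, Hoxd9 at 4447 bp and Hoxb7 at 4290 bp from an H3K4me3 region, and just outside it were Hoxb5 at 5378 bp and Hoxd11 at 6417 bp. With the window at 0 bp, so that a peak must touch the span, 9 Hox genes remained called for H3K4me3, against 51% of all genes. With 1000 bp the count was 12, against 52.1%, and with 10000 bp it was 24, against 57.9%. Using the longer peaks of each list only, it was 11, against 44.1%. The 9 touched by a peak were Hoxa3, Hoxa5, Hoxb3, Hoxb4, Hoxb6, Hoxc6, Hoxd3, Hoxd4 and Hoxd8. The farthest from any H3K4me3 region was Hoxb13, the lone gene at the far end of cluster b, at 97843 bp.

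The peaks merged into 16 H3K4me3 regions, 5 near cluster a, 4 near b, 1 near c and 6 near d, and 15 of them were present in 3 of 3 libraries. Each library saw nearly the same set, with 15, 16 and 16 peaks near Hox genes. Their length had a median of 674.5 bp (range 304 to 1728 bp), against 881 bp over the 16653 H3K4me3 regions found in at least 2 of 3 libraries genome-wide. Of the 16, 6 reached 1000 bp, 37.5%, against 40.8% genome-wide.

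**Figure D2:**
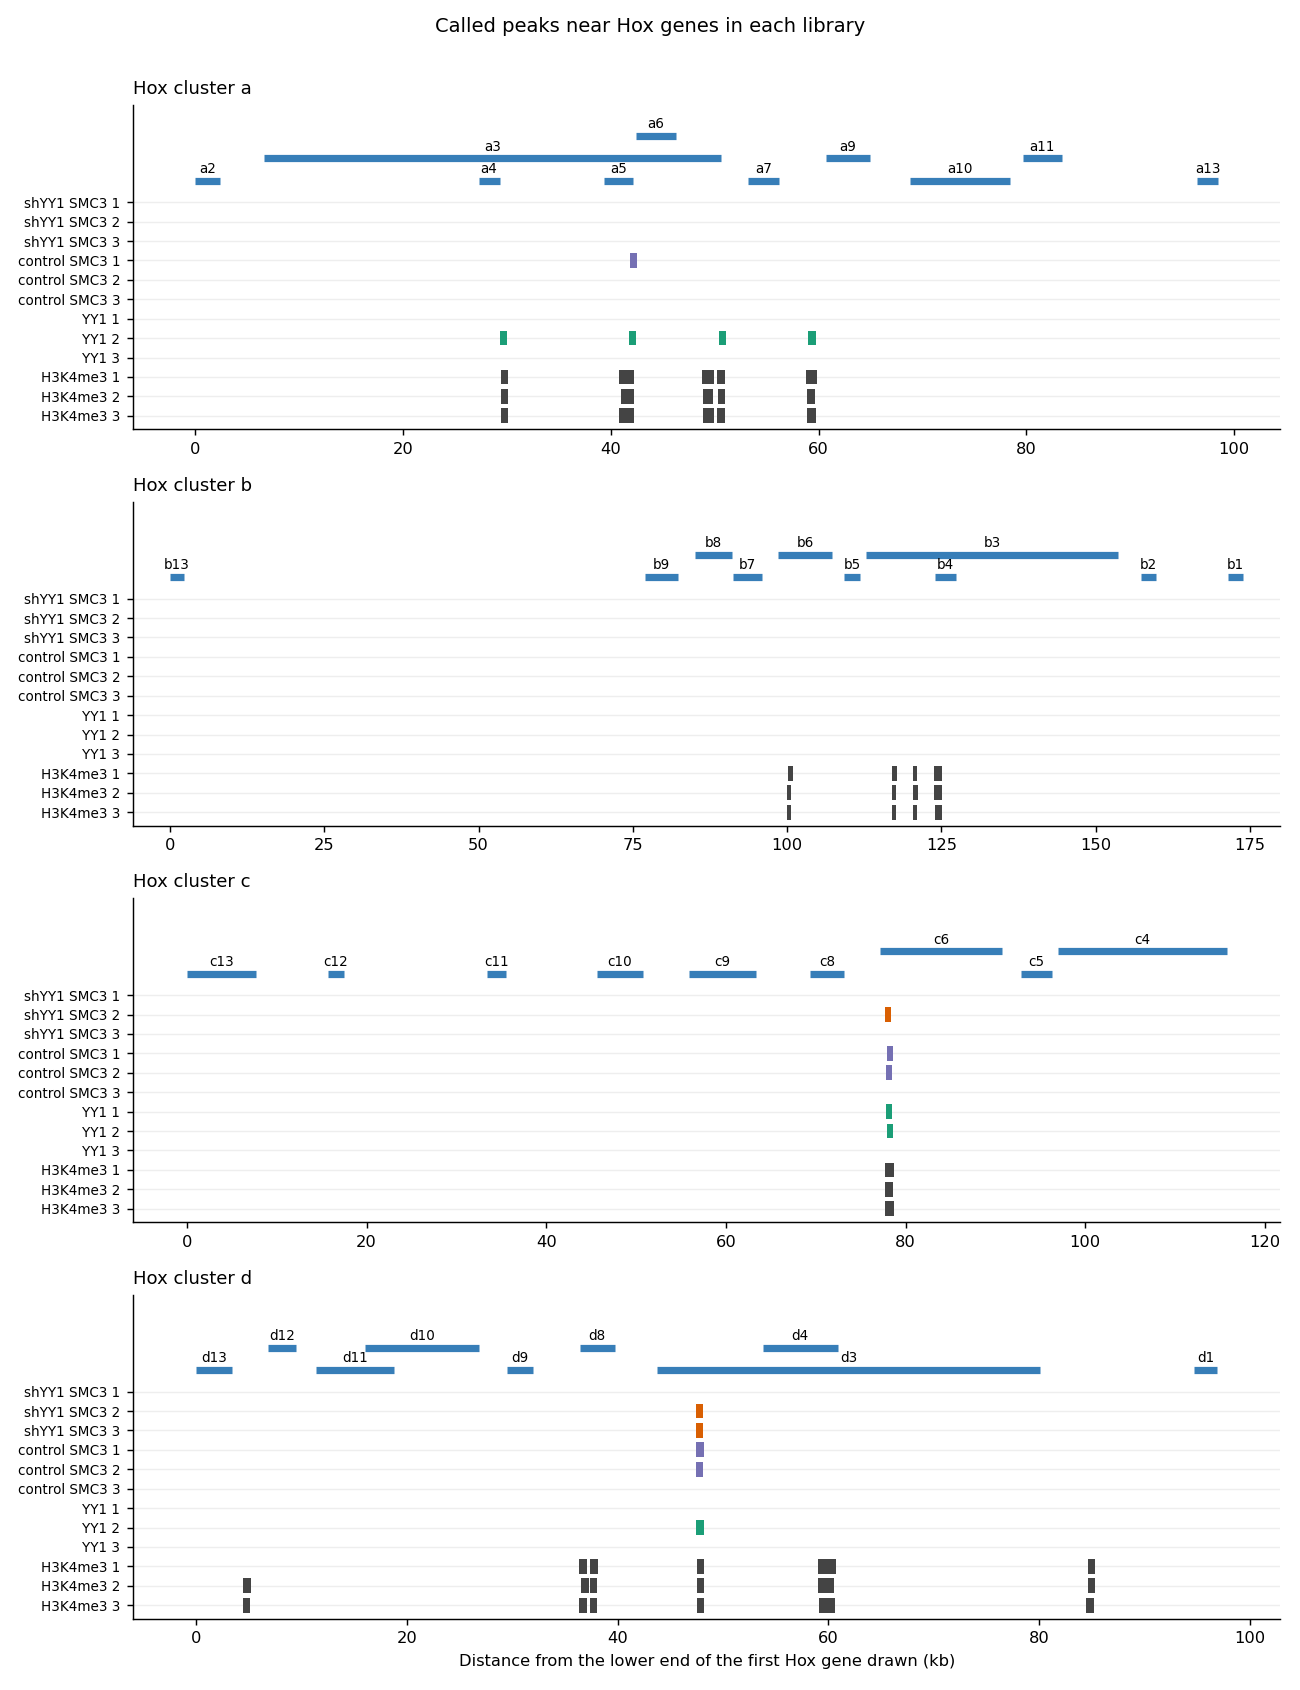
Called peaks near the Hox genes of clusters a to d in each of 12 libraries, against distance in kb from the lower end of the first gene drawn; blue bars are gene spans, labelled without their Hox prefix, and coloured boxes are peaks, drawn at least 0.7 kb wide so that short ones stay visible. H3K4me3 boxes recur in the same places in the 3 replicates, while cluster b has no YY1 or SMC3 box.

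The longest Hox region lay over Hoxd4 at chr2:74727208-74728935, inside the longer span given for Hoxd3, with peaks of 1728, 1545 and 1472 bp in the 3 libraries. All 3 ranked high within their own lists, between the 93.5th and the 95.7th percentile of peak length. The Hoxa5 region (chr6:52203233-52204644) had peaks of 1412, 1249 and 1372 bp, and Hoxa5 had the largest part of its span under H3K4me3, 47.8%, 42.3% and 47.4%. Hoxb4, whose product enlarges the pool of haematopoietic stem cells when supplied in excess, came next with 35.9%, 34.1% and 33.2% of its span. Its region at chr11:96318188-96319478 had peaks of 1290, 1229 and 1169 bp. No Hox gene had H3K4me3 over 50% of its span in any library.

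The remaining regions of cluster a were chr6:52211210-52212354 and chr6:52212605-52213396 near the upper end of the Hoxa3 span, chr6:52191905-52192410 beside Hoxa4, and chr6:52221162-52222214 between Hoxa7 and Hoxa9, 883 bp from Hoxa9. In cluster b, short regions lay in the Hoxb3 span (chr11:96311499-96311919 and chr11:96314859-96315348) and in the Hoxb6 span (chr11:96294453-96295005), and all 9 of their peaks were between 230 and 490 bp. H3K4me3 summits lay up to 302 bp apart between libraries in the Hoxb6 region, 310 bp in the region between Hoxa7 and Hoxa9 and 665 bp in the Hoxa5 region. In cluster d, a pair of short regions lay over Hoxd8 (chr2:74704655-74705211 and chr2:74705817-74706120), and the region shared by Hoxd12 and Hoxd13 (chr2:74672834-74673141) had peaks of 225 and 308 bp. A further region at chr2:74752691-74753509 lay outside every Hox span, 4420 bp from Hoxd3, and overlapped the spans of the long noncoding RNA genes Haglr and Gm14424. The annotation used gives gene spans without exons, so exon and intron positions are not stated.

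**Figure D3:**
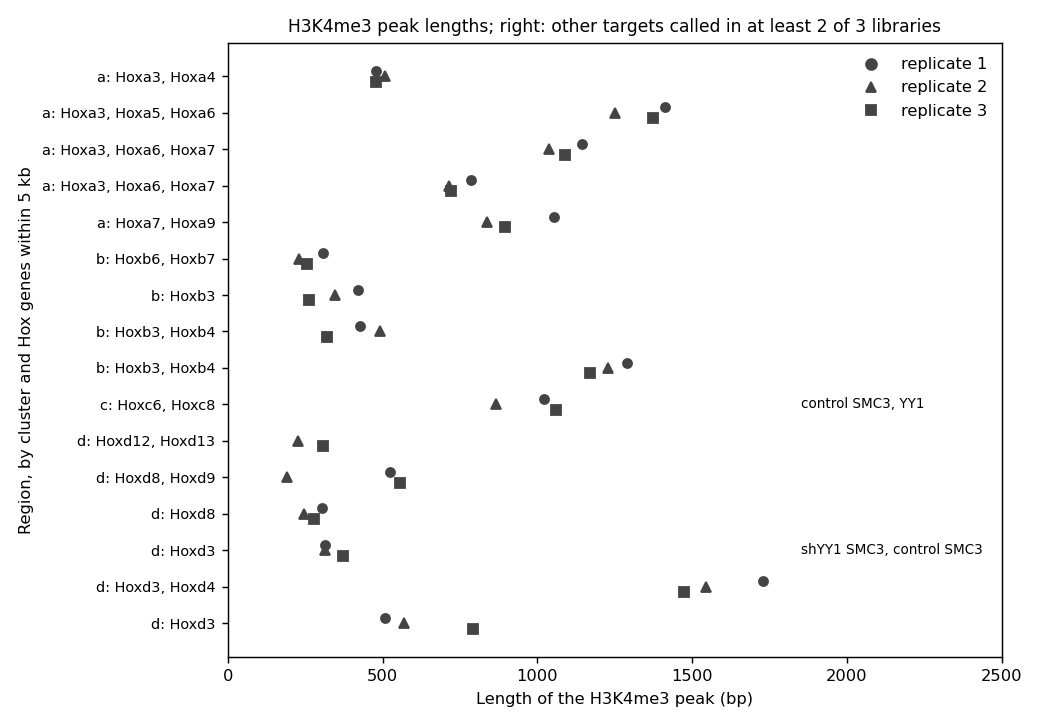
Length in bp of the H3K4me3 peak of each replicate (circle, triangle and square) in each of the 16 regions near Hox genes, labelled by cluster and by the Hox genes within 5 kb. Peaks over Hoxd4, Hoxa5 and Hoxb4 are the longest, from 1169 to 1728 bp, and the names at the right show that 2 of the 16 regions also held a region of SMC3 or YY1 present in at least 2 of 3 libraries.

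The length of DNA under H3K4me3 within 5 kb of Hox genes was 11548, 10356 and 11187 bp in the 3 libraries, a mean of 11030 ± 611 bp (SD, n = 3). Cluster a had the most in every library, with 4875, 4342 and 4555 bp. Cluster d had 3208, 2854 and 3567 bp, cluster b had 2445, 2294 and 2004 bp, and cluster c had 1020, 866 and 1061 bp. The order a, d, b, c was the same in the 3 libraries and the ranges of the clusters did not overlap. As a share of the DNA within 5 kb of the genes, this was 4.08% ± 0.239 in cluster a, 3.14% ± 0.349 in cluster d, 1.91% ± 0.191 in cluster b and 0.821% ± 0.0859 in cluster c (SD, n = 3 each). Over all 4 clusters the share was 2.44% ± 0.135, against 1.07% ± 0.0595 for the same windows around all protein-coding genes (SD, n = 3 each). Windows around all genes include long introns, and gene lengths were not matched in this comparison.

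**Figure D4:**
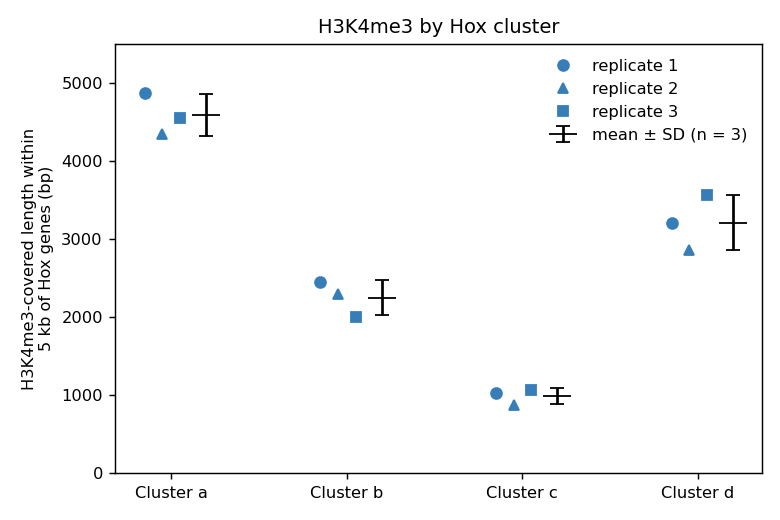
DNA covered by H3K4me3 peaks within 5 kb of Hox genes, in bp, for each cluster; symbols are the 3 replicates and bars the mean ± SD. Cluster a lies at 4342 to 4875 bp and cluster c at 866 to 1061 bp, with no overlap between clusters.

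RefSeq promoter windows, from 250 bases before to 50 after a listed transcription start, were at hand for 22 of the 39 Hox genes (24 windows). H3K4me3 regions overlapped 4 of these windows, those of Hoxa3, Hoxa5, Hoxb4 and Hoxd8. The whole 300 bp window of Hoxa3 was covered, 129 bp of that of Hoxb4, 107 bp of that of Hoxa5 and 10 bp of that of Hoxd8. The Hoxd8 overlap came from the replicate 3 peak alone, below the minimum of 2 libraries. The peaks of replicates 1 and 2 began past that window, at 74704677 and 74705018. Other marked genes had their nearest region away from the listed start. The distance was 2538 bp for Hoxa6, 2589 bp for Hoxa7, 5156 bp for Hoxa9, 3926 bp for Hoxd3, 5230 bp for Hoxd4, 6892 bp for Hoxd9, 1872 bp for Hoxd12 and 4609 bp for Hoxd13. Windows of other starts of these genes were not used here.

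The promoters of Hoxa3 and Hoxa5, which an H3K4me3 region and a YY1 peak of replicate 2 overlapped, and of Hoxb4, with H3K4me3 and no YY1 peak, are shown 5′ to 3′ on the strand of the gene (RefSeq, GRCm38.p6). A control SMC3 peak of replicate 1 also overlapped the Hoxa5 window. Capitals mark GCCAT, the core of the YY1 motif, or its reverse complement ATGGC. The Hoxa3 window lies at chr6:52213018-52213317 (minus strand), that of Hoxa5 at chr6:52204538-52204837 (minus strand) and that of Hoxb4 at chr11:96318017-96318316 (plus strand). That of Hoxa3 lies between the spans of Hoxa6 and Hoxa7 and within the span of the long noncoding RNA gene Hoxaas3.
Hoxa3: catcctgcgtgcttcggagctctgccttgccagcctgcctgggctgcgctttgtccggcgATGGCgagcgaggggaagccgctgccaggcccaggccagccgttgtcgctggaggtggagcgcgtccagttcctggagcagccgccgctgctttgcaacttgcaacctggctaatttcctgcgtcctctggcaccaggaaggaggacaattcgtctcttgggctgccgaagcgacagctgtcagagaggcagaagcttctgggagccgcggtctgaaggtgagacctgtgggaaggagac
Hoxa5: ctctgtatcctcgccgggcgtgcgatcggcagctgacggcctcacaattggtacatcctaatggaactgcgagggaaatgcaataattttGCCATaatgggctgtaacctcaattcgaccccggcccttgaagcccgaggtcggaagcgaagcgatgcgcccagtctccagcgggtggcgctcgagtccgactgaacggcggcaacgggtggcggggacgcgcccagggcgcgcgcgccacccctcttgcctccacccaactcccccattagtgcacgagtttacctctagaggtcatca
Hoxb4: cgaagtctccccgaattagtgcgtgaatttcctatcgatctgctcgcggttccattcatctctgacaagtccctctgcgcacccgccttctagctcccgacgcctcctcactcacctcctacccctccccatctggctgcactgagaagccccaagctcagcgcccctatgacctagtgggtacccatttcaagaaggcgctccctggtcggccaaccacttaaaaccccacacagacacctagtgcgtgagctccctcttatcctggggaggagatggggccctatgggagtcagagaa
Hoxa3 and Hoxa5 each held GCCAT 1 time and Hoxb4 held none. On either strand, GCCAT occurred in 13 of the 24 Hox windows, against 40.5% of 32851 RefSeq promoter windows and 42.9% of the 6342 windows that a YY1 region overlapped. The longer form AANATGG occurred in 2 of 24, those of Hoxc4 and Hoxd10, against 16.1% of all windows and 18.8% of those with a YY1 region. The motifs overlap, as the reverse complement ATGGC of the core shares the letters ATGG with AANATGG. Neither Hoxc4 nor Hoxd10 had a peak of any target, and a match describes letters only.

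The 2 H3K4me3 regions of Hoxb4 and Hoxd4 lay close to the genes of the miR-10 microRNAs, which are embedded in the clusters and are known to target Hox transcripts. Mir10a lay 914 bp from the Hoxb4 region and Mir10b 1071 bp from the Hoxd4 region. Their mature sequences (RefSeq, GRCm38.p6) are shown because they carry the same seed, bases 2 to 8, in capitals.
miR-10a-5p: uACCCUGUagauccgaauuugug
miR-10b-5p: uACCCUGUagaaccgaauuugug
They differ by U12A, counted from the 5′ end and from miR-10a-5p to miR-10b-5p. The miR-196 genes of the clusters, whose products are known to repress Hoxb8, lay farther from H3K4me3. The distance was 7867 bp for Mir196b in cluster a and 25394 bp for Mir196a-2 in cluster c. Mir196a-1 in cluster b lay within the span of the long noncoding RNA gene Gm51876, which was 25402 bp from H3K4me3.

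YY1 was called at 2 of 39 Hox genes, 5.13%, against 36.8% of all protein-coding genes. Both genes, Hoxc6 and Hoxc8, owed the call to 1 region, chr15:102999082-102999731, which lies in the Hoxc6 span and 4807 bp from Hoxc8. Its YY1 peaks were 447 bp long in replicate 1 and 640 bp in replicate 2, and replicate 3 had none. YY1 replicate 2, the longest list, also had peaks at the marked genes of cluster a and at Hoxd3. Near cluster a its peaks were 192, 162, 331 and 558 bp long, inside the H3K4me3 regions beside Hoxa4, at Hoxa5, at the upper end of Hoxa3 and between Hoxa7 and Hoxa9. Taken library by library, YY1 replicate 1 had 1 peak, at 2 Hox genes, against 38% of all genes. Replicate 2 had 6 peaks, at 9 Hox genes, against 42.7%, and replicate 3 had 0, against 19.7%. At least 1 YY1 library thus had a peak at 9 Hox genes, against 44.4% of all genes, and 3 of 3 libraries at none, against 19.3%. By covered DNA, YY1 peaks took up 0.188% ± 0.245 of the windows around Hox genes, against 0.223% ± 0.113 of those around all genes (SD, n = 3 each), so the Hox value lay within the spread between libraries of the value for all genes. By library the Hox shares were 0.0989%, 0.465% and 0%, against 0.231%, 0.331% and 0.106% for all genes, so replicate 2 was higher around Hox genes and the other two libraries lower. The clusters are dense in genes, and 1 peak there can count for several genes. Cluster b had no YY1 peak in any library, and the nearest YY1 region to Hoxb4 was 242114 bp away.

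**Figure D5:**
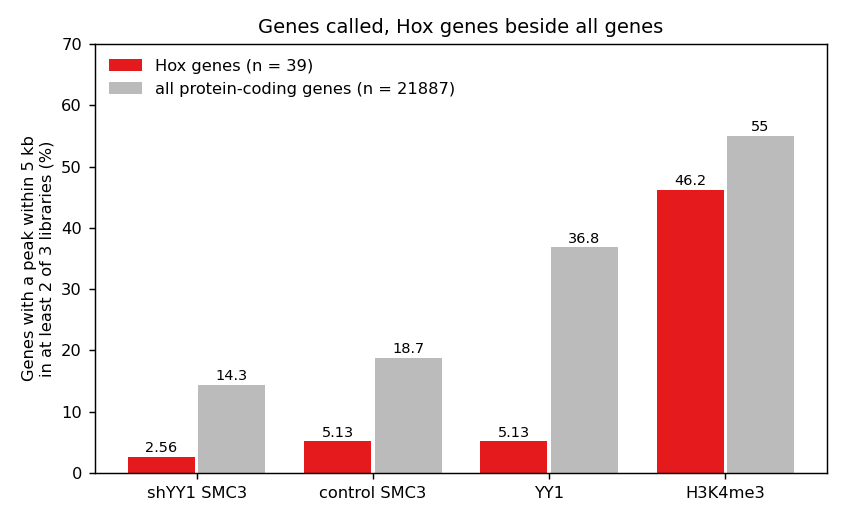
Percentage of the 39 Hox genes (red) and of all 21887 protein-coding genes (grey) with a peak within 5 kb in at least 2 of 3 libraries, for SMC3 in shYY1 cells, SMC3 in control cells, YY1 and H3K4me3. The Hox share for H3K4me3 is 46.2% against 55%, and for YY1 it is 5.13% against 36.8%.

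Shares were also taken among genes with the promoter mark. Of the 18 Hox genes called for H3K4me3, 2 were called for YY1, against 66.5% of all genes with H3K4me3. SMC3 of shYY1 cells was called at 1 of the 18, against 25.7%, and SMC3 of control cells at 2, against 33.8%. Counted by region, 1 of the 16 Hox H3K4me3 regions held a YY1 region, against 43.6% genome-wide. An SMC3 region of shYY1 cells lay in 1 of 16, against 15.3%, and one of control cells in 2 of 16, against 20.3%. Among regions of at least 1000 bp, 1 of 6 Hox regions held YY1, against 64.2% of 6792. SMC3 regions lay in 0 of these 6 for shYY1 cells, against 24.9%, and in 1 of 6 for control cells, against 32.6%. With a peak in 1 library accepted, 6 of the 16 regions held YY1, a count chosen after the data were seen. Of these, 5 had YY1 in replicate 2 only, and the genome-wide share at this minimum was not computed.

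SMC3 was called at 1 Hox gene in shYY1 cells, 2.56% against 14.3% of all genes, and at 2 in control cells, 5.13% against 18.7%. In shYY1 cells the gene was Hoxd3, with peaks in replicates 2 and 3. In control cells the genes were Hoxd3 and Hoxc6, each with peaks in replicates 1 and 2. Single-library peaks added Hoxc6 and Hoxc8 in shYY1 replicate 2. In control cells they added Hoxa3, Hoxa5 and Hoxa6 in replicate 1, all from 1 peak of 187 bp at Hoxa5, and Hoxc8 in replicate 2. Counted in at least 1 library, SMC3 was thus at 3 Hox genes in shYY1 cells, against 20.9% of all genes, and at 6 in control cells, against 26.6%. No Hox gene had SMC3 in 3 of 3 libraries, against 9.55% of all genes in shYY1 cells and 9.81% in control cells. The numbers of SMC3 peaks near Hox genes were 0, 2 and 1 in shYY1 cells, against 3, 2 and 0 in control cells.

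These counts overlapped between the arms. The means were 1 ± 1 peak in shYY1 cells and 1.67 ± 1.53 in control cells (SD, n = 3 each), a difference of -0.667 peaks with p = 0.8 in an exact two-sided permutation test. The covered length was 0, 421 and 148 bp in shYY1 cells, against 606, 500 and 0 bp in control cells, a difference of -179 bp with p = 0.5 in the same exact test. With 3 libraries against 3 this test cannot give a p below 0.1. Without control replicate 3, the shortest list, the differences were -1.5 peaks (exact permutation p = 0.3) and -363 bp (exact permutation p = 0.2). Leaving out the pair of libraries described with Abcam turned both signs, to 0.5 peaks and 34.5 bp (exact permutation p = 1 for each). Per 1000 peaks of the list, Hox genes had 0.317 ± 0.311 SMC3 peaks in shYY1 cells and 0.367 ± 0.338 in control cells (SD, n = 3 each). SMC3 peaks took up 0.0420% ± 0.0473 of the DNA around Hox genes in shYY1 cells, against 0.0602% ± 0.00264 around all genes, and 0.0816% ± 0.0716 in control cells, against 0.0782% ± 0.0298 around all genes (SD, n = 3 each). These differences were within the spread between libraries. Genes with SMC3 in 0 shYY1 and 3 control libraries numbered 45 genome-wide, 0.206%. No Hox gene could be among them, because control replicate 3 had 0 SMC3 peaks near Hox genes.

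Hoxc6 and Hoxd3 held the H3K4me3 regions where SMC3 was present in at least 2 of 3 libraries of an arm. The Hoxa5 region also held YY1 and control SMC3, in 1 library each. Their summits there lay at 52204552 (YY1 replicate 2) and 52204559 (control SMC3 replicate 1). At Hoxc6 the H3K4me3 region chr15:102998828-102999888 had peaks of 1020, 866 and 1061 bp, all with the same summit at 102999312. YY1 replicate 2 had its summit at that base too, and YY1 replicate 1 at 102999437. The SMC3 peak of shYY1 replicate 2 was 246 bp long with its summit at 102999306. The control SMC3 peaks were 172 bp and 337 bp long in replicates 1 and 2, with summits at 102999416 and 102999296. All 8 summits fell within 141 bp. Hoxc6 was thus called for SMC3 in 1 of 3 shYY1 libraries and 2 of 3 control libraries, a difference of 1 library.

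At Hoxd3 the H3K4me3 region chr2:74715919-74716293 was short, with peaks of 313, 314 and 371 bp. SMC3 peaks there were 175 bp and 148 bp long in shYY1 replicates 2 and 3, and 247 bp and 163 bp long in control replicates 1 and 2. YY1 had a single peak of 219 bp, in replicate 2. All 8 summits fell within 99 bp. Of these 8 peaks, 3 began at 74715919 and 3 ended at 74716081. By length they ranked between the 9.9th and the 50.7th percentile of their own lists. The IgG libraries were not analysed, so background signal at this place was not tested. Of the 2 control SMC3 regions near Hox genes, only the one at Hoxc6 held a YY1 region present in at least 2 of 3 libraries, against 94.7% of 3627 control SMC3 regions genome-wide. The Hoxd3 region also overlapped the span of Hoxd3os1, a long noncoding RNA gene beside Hoxd3, so its gene of origin cannot be told apart from position alone. The same limit holds for other regions in spans of long noncoding RNA genes. The Hoxa5 region and both regions near the upper end of Hoxa3 lay in Hoxaas3. The region beside Hoxa4 lay in LOC115490409, the Hoxb6 region in Hoxb5os and both Hoxd8 regions in Gm38462. The Hoxd3 region lay 3926 bp from the listed start of Hoxd3.

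The nearest protein-coding gene on each side of each cluster was read by the same rule. Skap2, which encodes a cytoplasmic adaptor and lies 142.8 kb from cluster a, had peaks of SMC3, YY1 and H3K4me3 in every library analysed. Evx1, the homeobox gene on the other side of that cluster, had none, and neither had Ttll6 nor Skap1 beside cluster b. Evx2, a homeobox gene 6.705 kb from cluster d, and Smug1, a DNA repair gene beside cluster c, had H3K4me3 in 3 of 3 libraries and no other target. Mtx2, a mitochondrial import gene beyond the other end of cluster d, had H3K4me3 in 3 libraries and YY1 in 1. Calcoco1 had H3K4me3 in 3 libraries, YY1 in 2 and SMC3 in 0 of 3 shYY1 and 1 of 3 control libraries.

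Genes of proteins that work with or on Hox genes were counted in the same way. The shares of all protein-coding genes to read them against are 14.3% for SMC3 in shYY1 cells, 18.7% for SMC3 in control cells, 36.8% for YY1 and 55% for H3K4me3. TALE homeodomain proteins bind DNA together with Hox proteins, and 7 of their 9 genes were called for H3K4me3, 6 for YY1, and 3 for SMC3 in shYY1 cells as well as in control cells. Pknox1 had every target in 3 of 3 libraries, and Meis1 had SMC3 in 3 shYY1 and 2 control libraries. Of 15 trithorax and MLL partner genes, 15 were called for H3K4me3, 12 for YY1 and 5 for SMC3 in shYY1 cells and 5 in control cells. Kmt2a, which encodes MLL1, had SMC3 in 3 shYY1 and 3 control libraries, YY1 in 2 and H3K4me3 in 3. Of 21 Polycomb genes, 21 were called for H3K4me3, 14 for YY1, 7 for SMC3 in shYY1 cells and 8 in control cells. Jarid2 and Phf1, which encode accessory subunits of Polycomb repressive complex PRC2, had every target in 3 libraries.

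Other homeobox families came from the same count. Of 20 homeobox genes of development outside the clusters, 9 were called for H3K4me3, 2 for YY1 and none for SMC3 in either arm. Of the 6 ParaHox genes, the sister family of Hox that includes the caudal genes, Cdx1 alone had H3K4me3 and none had YY1 or SMC3. Of the 6 retinoic acid receptor genes, which act upstream of Hox genes in the embryo, 4 were called for H3K4me3 and 3 for YY1, with Rara and Rxrb at 3 of 3 libraries for both. These lists are described by their counts, and no difference between them and the Hox genes was tested.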

How the data were processed

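Peak lists of 12 CUT&Tag libraries (3 per group) were used. The deposited files give, per the file headers, the chromosome, start, end, name and summit offset of each called peak, 1 list per library, with no score, so the depth is unknown. Per the submitters' processing notes, the authors used MACS2 2.2.9.1, Bowtie2 2.5.1, cutadapt 4.5 and Picard 3.1.1 with the build mm10. Of settings, thresholds and IgG use, nothing is given in the sources used here. Starts were read as counted from 0, which the files do not state, and are given from 1. Running peak names lacked 49 to 99 numbers per list, and the reason is not given in the sources used.

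Groups came from the labels. Peaks of a target sharing at least 1 bp were merged, and a region or gene counted from peaks in at least 2 of 3 libraries (within 5000 bp for genes). Genes were the 21887 protein-coding RefSeq spans of GRCm38.p6 outside the mitochondrial genome. Between the SMC3 arms, a two-sided exact permutation test used the 20 assignments of 6 libraries. Python 3.11.15, numpy 2.4.6 and matplotlib 3.10.9 were used, and the gene calls were tested on simulated peaks. Alternatives were other windows, library minimums, overlaps, longer peaks of each list, joined peaks, equal list lengths, left-out libraries and a replicate block. Every Hox gene is in the counts, and a few genes are not reported here by name. Coordinates are given for genes with YY1 or SMC3 regions and for the ends of each run with H3K4me3, and of the other lists up to 4 genes with the most libraries called were eligible to be named. The members and lists were chosen with earlier results of these data known. Replicates share 0.373% to 1.43% of identical peaks, and no 2 lists were the same. Over 6175 regions, the deviations of same-numbered SMC3 libraries of the arms correlated at -0.0058, 0.033 and -0.028. Differently numbered pairs ranged from -0.0394 to 0.0497. Such correlations of calls cannot exclude that libraries were made as pairs. The libraries were treated as unpaired, with the replicate block as the alternative.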

Additional observations from a re-analysis of the deposited data

How the results depend on the processing

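The Hox counts rest on few regions. H3K4me3 genes numbered 18 as reported, 9 with the window at 0 bp (against 51% of all genes), 11 with the longer peaks of each list (against 44.1% of all genes) and 16 to 18 with 1 library left out. YY1 genes numbered 2 as reported, 1 with the window at 0 or 1000 bp or with 50% of the peak required inside it, 0 when 3 of 3 libraries were required, 9 when 1 was enough, and 0 to 2 with 1 library left out. They fell to 0 without replicate 1 and without replicate 2. SMC3 genes in shYY1 cells numbered 1 as reported, 3 with a window of 10000 bp or when 1 library was enough, 0 in 3 of 3 libraries or among longer peaks, and 0 to 1 with 1 library left out (0 without replicate 2 or 3). SMC3 genes in control cells numbered 2 as reported, 5 with a window of 10000 bp, 6 when 1 library was enough, 0 in 3 of 3 libraries or among longer peaks, and 0 to 2 with 1 library left out (0 without replicate 1 or 2). By construction, wider windows and lower minimums admit more genes. Shares of all genes for 3 of 3 libraries and for at least 1 library are given further above. For YY1 and SMC3 at other windows, with 50% of the peak required or among longer peaks, no such share was computed. None was computed for counts with 1 library left out. Whether those changes in count are particular to Hox genes was not tested. The lists hold no score, so longer peaks stood in for a stricter threshold.

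The shYY1 minus control difference in SMC3 peaks was -0.667, and 0 with 2061 longest peaks taken from each list. With 1 library left out it ranged from -1.5 to 0 (0 without control replicate 1), and without both libraries described with Abcam it was 0.5. The covered length differed by -179 bp, by -30.3 bp with 2061 longest peaks from each list (exact permutation p = 1), by -363 to -60.3 bp with 1 library left out and by 34.5 bp without both libraries described with Abcam. The cause was not tested, and none of these alternatives gave an exact permutation p below 0.2. With the replicate block, the differences were the same, with exact p = 1 for peaks and p = 0.75 for length. H3K4me3 covered 11030 bp as reported, 9181 bp with the window at 0 bp, 9576 bp at 1000 bp, 11961 bp with peaks within 1000 bp joined, 7588 bp with longer peaks and 10772 to 11368 bp with 1 library left out. Counts by region were also made with other minimums chosen after the data were seen: with 3 of 3 libraries required, no Hox H3K4me3 region held YY1 or SMC3 of either arm, and with 1 library enough, 6 held YY1, 2 held SMC3 of shYY1 cells and 3 SMC3 of control cells. Genome-wide shares of regions at these minimums were not computed.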
